A study of Mus musculus with 16 samples.

Results

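The genes described here are 38 genes of striated muscle that were measured in mouse aorta: 14 genes of fast-twitch fibres, 7 genes of slow-twitch fibres and 17 genes used by both fibre types. They were chosen by name, each as the brightest probe that carried the gene's name on the array, out of 28095 gene names, and all 38 were found. Skeletal muscle fibres move by sliding myosin heavy chains along actin, with troponin C, I and T on the thin filament acting as the calcium switch. Fast and slow fibres build the same apparatus from different genes, so that nearly every fast protein has a slow counterpart. Several slow-fibre genes, among them Myh7, Tnnc1, Myl2 and Myl3, are also the genes of the heart ventricle. The aortic wall is built from smooth muscle, which uses its own contractile genes.

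RNA came from aortas of female C57BL/6 mice lacking ApoE, which develop atherosclerosis, that had been ovariectomized at 4 to 5 weeks of age and fed a fatty Western-type diet. From 2 weeks after surgery they carried a subcutaneous pellet designed to release its content over 90 days, and tissue was taken after 78 to 90 days, from beyond the curvature of the arch to just above the renal branches. There were 4 groups with 4 arrays each: medroxyprogesterone acetate (MPA) and the placebo of the MPA experiment (placebo_M), and norethisterone acetate (NET-A) and the placebo of the NET-A experiment (placebo_N). All 4 groups shared the ApoE deficiency, the ovariectomy and the diet, and MPA and NET-A are synthetic progestins. Nothing in the labels says whether an array held RNA of 1 animal or of several, or whether the tissue around the vessel was removed, so a p-value here reflects only how much these arrays vary. The arrays had 1 colour, and a level is given as log2 of the processed signal minus the 75th percentile of its array; 0 is therefore that percentile itself. In whole tissue, fewer cells of a type and less RNA per cell cannot be told apart.

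The tissue carried its own markers on each of the 16 arrays. All 11 genes of the smooth muscle list were well above background on every array, with a mean level of 5.67 to 6.07 in MPA and 5.58 to 6.30 in placebo_M aortas, and 6.02 to 6.44 in NET-A and 5.98 to 6.44 in placebo_N aortas. The share of non-control spots well above background ran from 46.3% to 60.6% over the arrays with MPA and its placebo, and from 62.3% to 78.5% over those with NET-A and its placebo. The array MPA 2 was the dimmest, with a 75th percentile of 165 signal units against 515 to 992 on the other 7 arrays of its experiment, so that dim probes sit higher on it relative to that percentile. The experiments were processed separately on 2 and 3 slides, and levels are not compared between them.

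The probes behind the members are 60-base oligonucleotides, and those below are examples from the fast, slow and shared genes described next. Whether a probe reads coding or untranslated sequence was not looked up. Coordinates are those of the array files, in the mouse build mm9. The first group is of fast fibres: Tnnt3, fast troponin T, on the plus strand of chr7:149698254-149698479, Mylpf, the fast regulatory light chain, on the plus strand of chr7:134356749-134356985, and Myh4, the fastest adult myosin heavy chain, on the plus strand of chr11:67072804-67072863. For Tnnt3 and Mylpf, the coordinates span 226 and 237 bases for 60 bases of probe, so these probes cross an intron.
Tnnt3: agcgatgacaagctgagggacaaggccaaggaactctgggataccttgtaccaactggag
Mylpf: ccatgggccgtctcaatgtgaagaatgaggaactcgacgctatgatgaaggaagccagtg
Myh4: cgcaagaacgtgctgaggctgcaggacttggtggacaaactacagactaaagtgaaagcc

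The second group holds slow-fibre genes, of which Tnnc1, Myl2 and Myl3 are shared with the heart while Tnni1, slow troponin I, is a skeletal isoform in the adult. Tnni1 lies on the plus strand of chr1:137704148-137705229, Tnnc1, slow and cardiac troponin C, on the plus strand of chr14:32023360-32023776, Myl2, the ventricular and slow regulatory light chain, on the plus strand of chr5:122553922-122554872, and Myl3, the ventricular and slow essential light chain, on the plus strand of chr9:110671632-110671926. Each of these 4 probes also crosses an intron.
Tnni1: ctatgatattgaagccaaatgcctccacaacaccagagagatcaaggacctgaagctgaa
Tnnc1: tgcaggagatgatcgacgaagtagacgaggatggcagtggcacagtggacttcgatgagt
Myl2: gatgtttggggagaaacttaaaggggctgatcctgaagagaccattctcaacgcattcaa
Myl3: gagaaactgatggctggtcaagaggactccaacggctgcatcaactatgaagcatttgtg

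The probe of Acta1, skeletal alpha-actin, lies on the minus strand of chr8:126416197-126416256, a span as long as the probe. Actin coding sequences are nearly identical between family members, and Acta2, the smooth muscle actin, had a level of 8.46 to 9.46 in MPA and 8.59 to 8.98 in placebo_M aortas, so the Acta1 value is uncertain. The adult fast myosins Myh1, Myh2 and Myh4 are close relatives too, and their probes can share signal.
Acta1: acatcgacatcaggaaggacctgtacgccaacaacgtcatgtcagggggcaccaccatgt

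Detection differed between the classes and the experiments. Of the 38 members, 20 were well above background on at least 4 of the 8 arrays with MPA or its placebo and entered the test there: 8 of 14 fast, 2 of 7 slow and 10 of 17 shared genes. In the NET-A experiment, 32 of 38 entered: 13 fast, 6 slow and 13 shared genes. On single arrays, between 15 and 19 members were well above background in MPA and between 18 and 31 in placebo_M aortas, and between 30 and 34 in NET-A and between 26 and 32 in placebo_N aortas. A member that entered because it was high on 1 group's arrays had to differ, and counts over the tested members are read with that in mind. Of the 38 members, 11 were well above background on all 16 arrays: Tnnc2, Tnni2, Myl1, Mybpc2, Myl3, Acta1, Mb, Ryr1, Eno3, Pygm and Tcap.

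**Figure D1:**
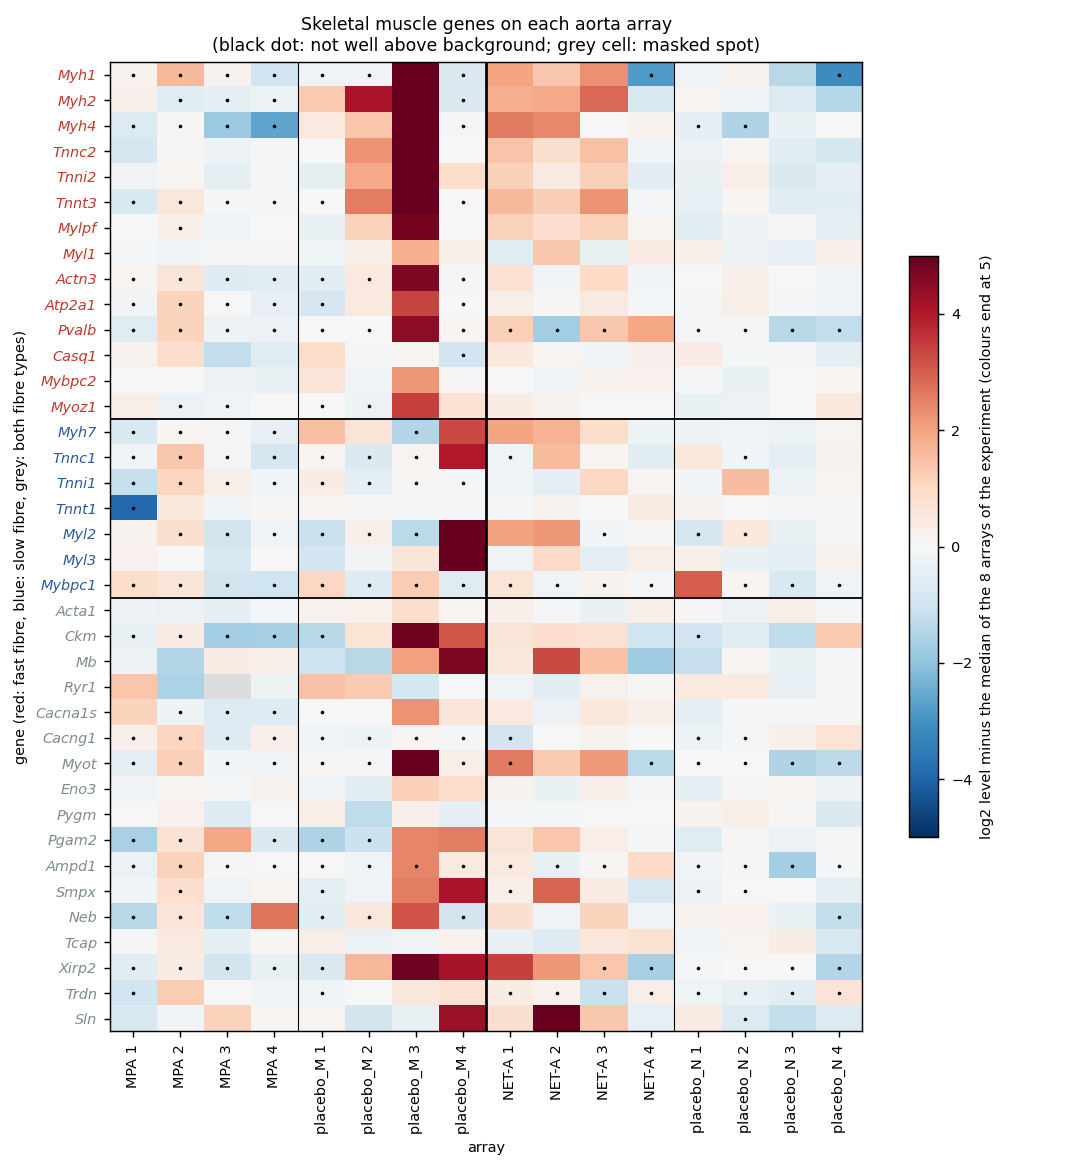
Each row is a skeletal muscle gene and each column an array, and the colour is the log2 level minus the median of that gene over the 8 arrays of the experiment (colours end at 5). Black dots mark values not well above background. The fast genes are dark red on placebo_M 3, 4 of the slow genes are dark red on placebo_M 4, and many of the fast genes are lighter red on NET-A 1, 2 and 3.

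Single arrays stood apart for the fibre classes. For each gene, the median of its 8 levels in the experiment was subtracted, and an array was said to stand apart where the median of these deviations over a class exceeded 1 in size. The fast genes stood apart on placebo_M 3, at 4.72, against -0.27 to 0.48 on the other 7 arrays of the MPA experiment. The class median hides a weaker rise on placebo_M 2. There 6 of the 14 fast genes lay more than 1 above their own medians and 0 more than 1 below, with Myh2 highest at 4.09. On placebo_M 3 it was 13 of 14. The slow genes stood apart on placebo_M 4, at 3.32, against -0.21 to 0.60 on the other 7. The shared genes stood apart on placebo_M 3, at 2.06, against -0.30 to 0.59 on the other 7. In the NET-A experiment the fast genes stood apart on NET-A 1, at 1.17, and on NET-A 3, at 1.07, against -0.48 to 0.61 on the other 6 arrays, and neither slow nor shared genes did on any array. Those other 6 arrays include NET-A 2, at 0.61 for fast and 0.97 for slow genes. No MPA and no placebo_N array stood apart.

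**Figure D2:**
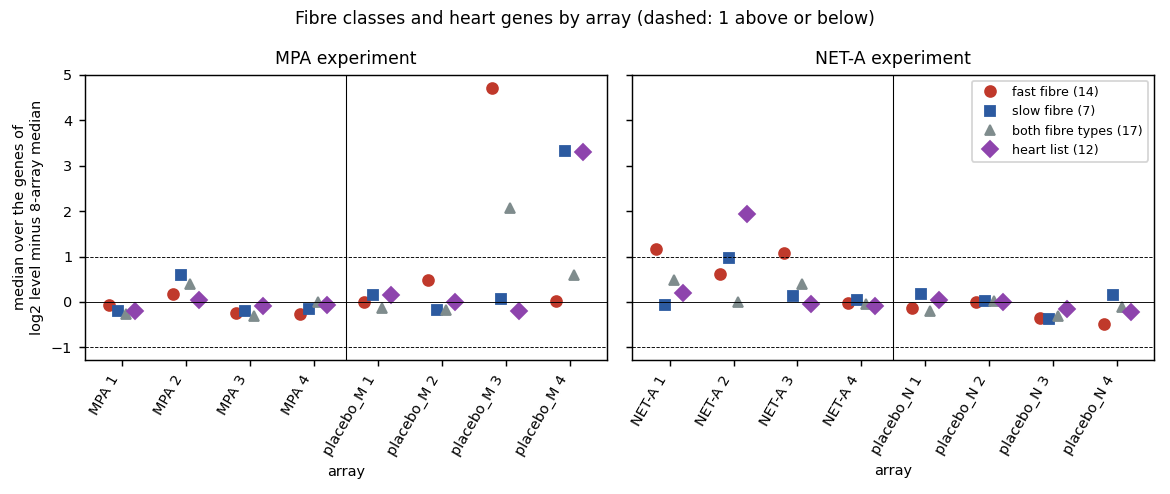
Points give, for each array, the median over the fast, slow, shared and heart genes of the log2 level minus the gene's median over the 8 arrays of the experiment, with treated arrays left of their placebo. The fast genes reach 4.72 on placebo_M 3, the slow and heart genes 3.32 and 3.30 on placebo_M 4, and the heart genes 1.94 on NET-A 2.

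The array placebo_M 3 carried a fast-fibre profile. It was the highest of the 8 arrays for 13 of the 14 fast genes, each well above background there, and Casq1, the calcium-binding protein of the sarcoplasmic reticulum, was the exception, with a deviation of 0.11. The largest fast deviation was 7.39, for Myh2. Among all gene names ranked by how far placebo_M 3 exceeded the next highest array of its experiment, members took 8 of the top 10 places. These were Myh1, Tnnt3, Myh4, Tnni2, Tnnc2, Myot, Actn3 and Mylpf, with gaps of 5.59 log2 units for Myh1 to 3.62 for Mylpf. Myot, a protein of the Z-disc, was the shared gene among them. The non-member Myh8, the perinatal skeletal myosin heavy chain, took another of those places with a gap of 3.99. The fast genes had 10 further probes, of which 8 were well above background on placebo_M 3, and 7 of those 8 lay more than 1 above their 8-array median. The exception was a Myh1 probe at 0.81. Another Myh1 probe, not well above background, lay at 0.45, against 7.21 for the Myh1 probe used. The first place of Myh1 thus rests on 1 of its 3 probes.

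The slow genes did not take part in the placebo_M 3 profile. Their deviations there ran from -1.46 for Myh7, the slow and cardiac myosin heavy chain, to 1.26 for Mybpc1, slow myosin-binding protein C. Only 2 of the 7 slow genes, Tnnt1 and Myl3, were well above background on this array, so the other values, with both ends of that range, are background. The median of the heart list (12 genes, Myh6, Nppa and Tnni3 among them) was -0.20 on this array, and its highest deviation was 0.34. Among the shared genes, 10 of 17 lay more than 1 above their median, with Myot at 5.27, Xirp2, an actin-binding protein of striated muscle, at 4.88 and Ckm, muscle creatine kinase, at 4.84. A list of 49 other striated muscle genes had a median deviation between -0.07 and 0.28 on each placebo_M array, so as a list it stood apart on none. Single genes of that list were nevertheless high on placebo_M 3 and 4. Ckmt2 stood at 1.19 and 2.18 on them, against -6.05 to -3.99 in MPA aortas and -5.94 and -4.86 on placebo_M 1 and 2. Cox6a2 stood at 2.04 and 3.67, against -2.14 to -1.46 in MPA aortas and -2.08 and -4.71 on placebo_M 1 and 2. Others, such as Ttn at -2.83 and -3.52, were not high there. Schwann cell and myelin genes had a median deviation of 0.47 on placebo_M 3, against -0.09 to 0.09 on the other 7 arrays of the MPA experiment. Smooth muscle, brown adipocyte and general adipocyte genes lay at -0.24, -0.13 and -0.01 there. The part of any of these tissues in the profile was not tested.

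The array placebo_M 4 carried a different profile. The 4 slow genes shared with the heart were highest there: Myl2 by 6.98 above its 8-array median, Myl3 by 5.53, Tnnc1 by 4.02 and Myh7 by 3.32. The slow genes restricted to skeletal fibres in the adult were not, since Tnni1 lay at -0.06, Tnnt1, slow troponin T, at -0.08 and Mybpc1 at -0.60. Of these only Tnnt1 was well above background there, so the other values are background. The fast genes ran from -0.97 for Casq1 to 0.87 for Tnni2, fast troponin I. The heart list had a median deviation of 3.30, against -0.21 to 0.15 on the other 7 arrays, with 10 of 12 genes over 1 and 12 of 12 well above background. The atrial peptide Nppa stood at 4.00 against -2.95 to -0.05 in MPA aortas and -2.36 to -1.23 on the other 3 placebo_M arrays, and Myh6, the adult mouse cardiac myosin heavy chain, stood at 0.79 against -5.54 to -3.42 in MPA aortas and -5.13 to -3.65 on the other 3 placebo_M arrays. Among the shared genes, Mb, the oxygen store myoglobin, lay 4.65 above its median, Sln, an inhibitor of the sarcoplasmic calcium pump that is strong in atria, 4.30 and Smpx, a small stretch-responsive muscle protein, 4.10. Myl2 and Myl3 held the first and second place of all gene names by gap to the next array, at 6.18 and 4.95, followed by the heart genes Tnni3 at 4.49 and Myh6 at 4.21.

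**Figure D3:**
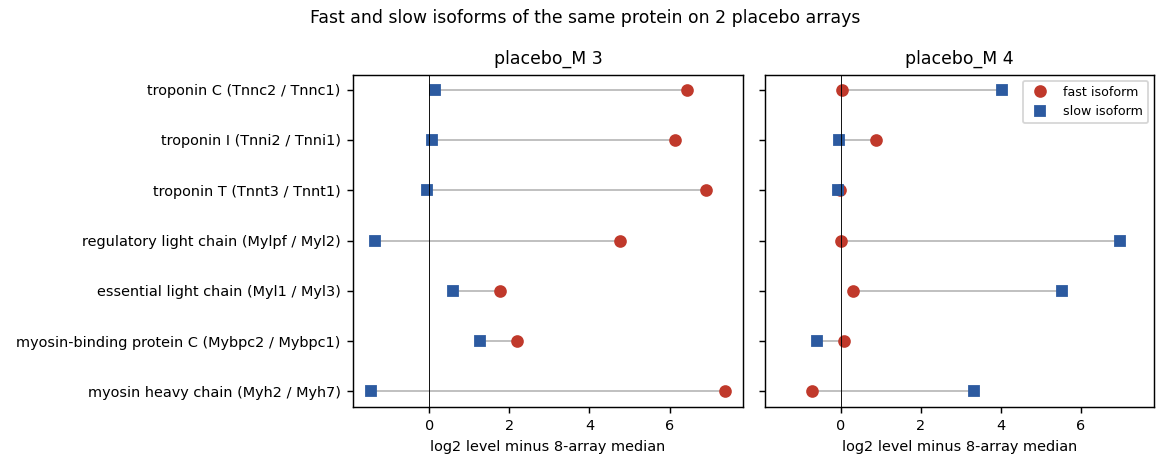
Each line joins the fast (circle) and slow (square) isoform of a protein, placed by the log2 level minus the gene's median over the 8 arrays of the MPA experiment. On placebo_M 3 the fast isoforms lie at 1.76 to 7.39 and the slow ones at -1.46 to 1.26, with only Tnnt1 and Myl3 of the slow ones well above background. On placebo_M 4 Tnnc1, Myl2, Myl3 and Myh7 lie at 3.32 to 6.98 and the fast isoforms at -0.73 to 0.87.

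The pairs of fast and slow isoforms separated the 2 placebo arrays in most proteins. On placebo_M 3, fast troponin C (Tnnc2) deviated by 6.44 and slow troponin C (Tnnc1) by 0.13, while on placebo_M 4 Tnnc2 deviated by 0.02 and Tnnc1 by 4.02. The regulatory light chains did the same, with 4.77 for Mylpf and -1.35 for Myl2 on placebo_M 3, and 0.01 for Mylpf and 6.98 for Myl2 on placebo_M 4. Tnnc1 and Myl2 were not well above background on placebo_M 3. Troponin I and troponin T separated the pair on placebo_M 3, with 6.13 for Tnni2 and 6.91 for Tnnt3. On placebo_M 4 their slow forms Tnni1 and Tnnt1 lay at -0.06 and -0.08, with Tnni1 not well above background. The essential light chain Myl1 was bright on all 16 arrays and deviated by 1.76 on placebo_M 3, and the fast myosin-binding protein C, Mybpc2, by 2.19.

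The promoters of the troponin C pair are shown because their genes took part in opposite profiles. They are the 250 bases before the RefSeq start of each gene in GRCm38.p6, with capitals marking E-boxes (CANNTG, the site of myogenic bHLH factors), MCAT elements (CATTCC, bound by TEAD factors) and TATA boxes (TATAAA), searched on both strands, with overlaps between motifs allowed. The Tnnc2 window lies on the minus strand of chr2:164779735-164779984 and holds 2 E-boxes, and the Tnnc1 window lies on the plus strand of chr14:31208062-31208311 and holds 2 E-boxes and 1 MCAT element.
Tnnc2: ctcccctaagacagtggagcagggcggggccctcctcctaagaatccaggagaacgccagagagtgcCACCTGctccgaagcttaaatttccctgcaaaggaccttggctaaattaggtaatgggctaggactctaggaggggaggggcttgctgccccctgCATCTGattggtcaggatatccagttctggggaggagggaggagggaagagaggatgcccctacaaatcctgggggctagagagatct
Tnnc1: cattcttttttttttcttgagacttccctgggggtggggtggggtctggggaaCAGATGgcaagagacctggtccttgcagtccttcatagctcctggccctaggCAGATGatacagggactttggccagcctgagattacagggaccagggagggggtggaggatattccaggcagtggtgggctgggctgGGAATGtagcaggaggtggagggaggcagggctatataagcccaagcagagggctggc

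The promoter table held 33 windows for 27 of the 38 members. An E-box was in 84.8% of the members' windows and in 66.2% of all 32851 windows of that length. An MCAT element was in 30.3% against 12.6%, and a TATA box in 18.2% against 12.4%. By class, an E-box was in 8 of 11 fast, 10 of 10 slow and 10 of 12 shared windows. The MEF2 element was in 1 of the members' windows (3.03% against 0.508% of all) and the CArG box in 3 (9.09% against 1.47%). These are letters in a window, and no binding was measured.

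The first comparison asked whether MPA changed these genes relative to its own placebo. None of the 8 fast, 2 slow and 10 shared members tested passed limma's test at a Benjamini-Hochberg adjusted p of 0.05, and neither did any of the 15219 genes tested, so that 0% were called. At an unadjusted p under 0.05 there were 2 members of 20 (Myh2 and Acta1, both lower), against 6.22% of all genes in either direction, 2.5% lower and 3.73% higher. Of these, Myh2 passed the filter mainly through its placebo arrays, which favours a lower value in MPA. The median log2 difference, MPA minus placebo_M, was -1.21 over the fast, -1.15 over the slow and -0.63 over the shared genes, beside -0.00276 over all genes tested. All 8 fast members, both slow ones and 9 of 10 shared ones had a lower mean in MPA aortas, while 49.5% of all genes tested had a higher one. The members were measured on the same arrays and are not independent of each other. Leaving out placebo_M 3 brought the fast median to -0.29, and leaving out placebo_M 4 brought the slow median to -0.45 and the shared median to -0.16. Without both arrays the medians were -0.49, -0.29 and 0.23, an alternative chosen after the data were seen, and within slide 1, which holds neither of them, they were -0.25, -0.57 and 0.27. Slide 2, which holds both, gave -2.34, -1.73 and -0.90.

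Among the fast genes, Myh2, the heavy chain of type IIA fibres, had levels of -3.71, -4.57, -4.45 and -4.20 in MPA aortas, against -2.64, 0.13, 3.43 and -4.69 in placebo_M aortas. The groups overlapped, since placebo_M 4 was the lowest of all 8 arrays, and placebo_M 2 and 3 were the highest. The log2 difference was -3.29 ± 1.45 (SE, limma, adjusted p = 0.799), and it was -1.83 without placebo_M 3 and -4.54 without placebo_M 4. Myh2 was well above background on 1 of 4 MPA arrays and on 3 of 4 placebo_M arrays, so it entered the test mainly through the placebo group and the size of its difference is set against levels that are mostly background. Tnnc2 had levels of -2.98, -2.08, -2.38 and -2.20 in MPA aortas, against -2.16, 0.08, 4.30 and -2.13 in placebo_M aortas. Here too placebo_M 2 and 3 were high, and the other 2 placebo arrays lay inside the range of the MPA arrays. The difference was -2.43 ± 1.26 (adjusted p = 0.843), and -1.01 without placebo_M 3. Tnni2 had levels of -2.37, -2.09, -2.63 and -2.29 in MPA aortas, against -2.65, -0.29, 3.94 and -1.32 in placebo_M aortas. Its placebo levels spanned the MPA levels, and the difference of -2.26 ± 1.17 (adjusted p = 0.844) became -0.92 without placebo_M 3.

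Mylpf had levels of -2.98, -2.71, -3.16 and -2.99 in MPA aortas, against -3.31, -1.81, 1.81 and -2.96 in placebo_M aortas. The MPA levels lay between the lowest and the second highest placebo level, and the difference of -1.39 ± 0.97 (adjusted p = 0.860) became -0.27 without placebo_M 3. Myoz1, calsarcin-2 of the fast-fibre Z-disc, had levels of -3.50, -4.08, -3.96 and -3.82 in MPA aortas, against -3.77, -4.04, -0.37 and -3.05 in placebo_M aortas. Without placebo_M 3 its difference went to -0.22, against -1.03 ± 0.70 with it (adjusted p = 0.859). The 3 other tested fast genes, Mybpc2, Myl1 and Casq1, differed by -0.82 to -0.18 (adjusted p = 0.848 to 0.969).

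The 6 fast genes that did not enter the test in the MPA experiment were not well above background on any MPA array. Myh4 was well above background on 3 of 4 placebo_M arrays. Myh4 levels were -4.21, -3.45, -5.39 and -6.16 in MPA aortas, all background, against -3.02, -2.15, 2.17 and -3.59 in placebo_M aortas. With the lowest signal well above background as a bound on each MPA array, the placebo mean was at least 4-fold higher, and at least 1.65-fold higher without placebo_M 3. Tnnt3 was well above background on placebo_M 2 and 3, with levels of -4.80, -3.46, -4.07 and -4.14 in MPA aortas, against -4.01, -1.48, 2.88 and -4.05 in placebo_M aortas. The bound on its placebo mean over MPA was at least 3.95-fold, and 1.38-fold without placebo_M 3. Myh1, the heavy chain of type IIX fibres, was well above background on placebo_M 3 alone, with levels of -4.85, -3.39, -4.85 and -6 in MPA aortas, against -5.18, -5.21, 2.19 and -5.74 in placebo_M aortas. Its bound was 1.12-fold, and there was none without that array. Pvalb, parvalbumin, the fast-fibre calcium buffer, was likewise well above background on placebo_M 3 alone, with levels of -6.45, -4.72, -6.12 and -6.13 in MPA aortas, against -5.83, -5.86, -1.35 and -5.71 in placebo_M aortas, which gave no bound above 1. The same held for Actn3, fast alpha-actinin, at -0.59 on placebo_M 3. Atp2a1, the fast calcium pump, had a bound of 1.26-fold.

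Among the slow genes, Myl3 had levels of -2.02, -2.25, -3.04 and -2.21 in MPA aortas, against -3.19, -2.40, -1.64 and 3.30 in placebo_M aortas. The MPA levels fell inside the range of the first 3 placebo arrays, and the difference of -1.40 ± 1.21 (adjusted p = 0.884) became 0.03 without placebo_M 4. Tnnt1 had levels of -6.12, -1.68, -2.40 and -2.15 in MPA aortas, against -2.05, -2.13, -2.26 and -2.28 in placebo_M aortas. The low value was on MPA 1, where the probe was not well above background, and without that array the difference of -0.91 ± 0.84 (adjusted p = 0.888) became 0.10. Myh7 was well above background on no MPA array and on 3 placebo_M arrays, with levels of -4.79, -3.93, -4.10 and -4.41 in MPA aortas, against -2.50, -3.38, -5.47 and -0.69 in placebo_M aortas. Its placebo mean was at least 1.55-fold higher, with no bound above 1 without placebo_M 4. Myl2 was well above background on MPA 1 and placebo_M 4 alone, with levels of -3.94, -3.3, -5 and -4.25 in MPA aortas, against -5.2, -3.85, -5.45 and 2.88 in placebo_M aortas. Tnnc1 was well above background on placebo_M 4 alone, with levels of -5.44, -3.88, -5.33 and -6.08 in MPA aortas, against -5.13, -5.95, -5.10 and -1.21 in placebo_M aortas. Tnni1 and Mybpc1 were well above background on none of the 8 arrays.

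Among the shared genes, Acta1 had levels of 1.94, 1.90, 1.73 and 2.11 in MPA aortas, against 2.40, 2.43, 3.09 and 2.30 in placebo_M aortas. It was the 1 tested member whose groups did not overlap in this comparison, while 1.37% of all genes were lower and 2.63% higher in MPA without overlap. Its means were 1.92 ± 0.16 in MPA and 2.55 ± 0.36 in placebo_M aortas (SD, n = 4 each), and the difference was -0.63 ± 0.20 (SE, limma, adjusted p = 0.742). It was -0.46 without placebo_M 3, and over all alternatives tried it ran from -0.93 to -0.46, with adjusted p from 0.0974 to 0.999. Mb had levels of -0.54, -1.75, 0.10 and -0.03 in MPA aortas, against -1.32, -1.66, 1.77 and 4.36 in placebo_M aortas. The high placebo arrays were placebo_M 3 and 4, and the difference of -1.35 ± 1.21 (adjusted p = 0.886) became 0.93 without both. Sln had levels of -2.14, -1.50, -0.23 and -1.22 in MPA aortas, against -1.24, -2.29, -1.76 and 2.93 in placebo_M aortas, and its difference of -0.68 ± 1.03 (adjusted p = 0.927) became 0.49 without placebo_M 4.

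Smpx behaved like Mb, with levels of -3.52, -2.53, -3.55 and -3.25 in MPA aortas, against -3.82, -3.57, -0.83 and 0.72 in placebo_M aortas. Its difference of -1.34 ± 0.92 (adjusted p = 0.859) became -0.99 without placebo_M 3, -0.47 without placebo_M 4 and 0.48 without both. Cacna1s, the voltage sensor of the skeletal calcium channel, had levels of -2.19, -3.58, -3.95 and -3.95 in MPA aortas, against -3.33, -3.29, -1.08 and -2.72 in placebo_M aortas, and the difference of -0.82 ± 0.56 (adjusted p = 0.859) became -0.31 without placebo_M 3. It too was well above background on 1 of 4 MPA and 3 of 4 placebo_M arrays, so most of its MPA levels are background. Ckm was well above background on no MPA array and on 3 placebo_M arrays, with levels of -4.63, -3.86, -5.97 and -5.90 in MPA aortas, against -5.62, -3.55, 0.60 and -1.13 in placebo_M aortas. Its placebo mean was at least 2.33-fold higher, and at least 1.16-fold higher without placebo_M 3. Xirp2 had the same detection and a bound of 2.25-fold, or 1.29-fold without placebo_M 3. Neb, the thin-filament ruler nebulin, was well above background on MPA 4 and placebo_M 3 alone, with levels of -6.14, -4.10, -6.03 and -2.06 in MPA aortas, against -5.30, -4.21, -1.60 and -5.66 in placebo_M aortas.

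Among the remaining shared genes, Myot, Pgam2 and Ampd1 lay 5.27, 2.46 and 2.44 above their medians on placebo_M 3, Ampd1 not well above background. Ryr1, the calcium release channel, was read by a probe whose accession matched no RefSeq transcript in the table used, with levels of 5.72, 2.75 and 4.11 on MPA 1, 2 and 4, its MPA 3 spot having been masked, against 5.81, 5.67, 3.48 and 4.34 in placebo_M aortas. The other 2 Ryr1 probes were dimmer, and on placebo_M 3 they lay 2.43 and 3.20 above their medians while the brightest lay 0.86 below, so the probes of this gene disagree. Its difference over 3 and 4 arrays was -0.63 ± 0.78 (adjusted p = 0.914) and became 0.09 without MPA 2. Trdn, triadin, had levels of -4.35, -2.12, -3.41 and -3.53 in MPA aortas, against -3.59, -3.35, -2.83 and -2.62 in placebo_M aortas, with a difference of -0.26 ± 0.43 (adjusted p = 0.938) that became 0.07 without MPA 1. Dimmer Trdn probes lay 3.49 and 4.12 above their medians on placebo_M 3, and 4.16 and 4.27 on placebo_M 4. They were well above background there and differed by -2.14 and -1.72 for MPA. The probe used lay at 0.55 and 0.76 on these arrays, so the Trdn probes disagree too. The dimmest one differed by -0.13 and was never well above background. Tcap, Pygm and Eno3, a Z-disc protein and the muscle forms of glycogen phosphorylase and enolase, differed by -0.03, 0.18 and -0.36 (adjusted p = 0.992, 0.953 and 0.902). Pgam2, muscle phosphoglycerate mutase, was well above background on 3 of 8 arrays, Myot on placebo_M 3 alone, and Cacng1, a calcium channel subunit, and Ampd1, muscle AMP deaminase, on none.

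**Figure D4:**
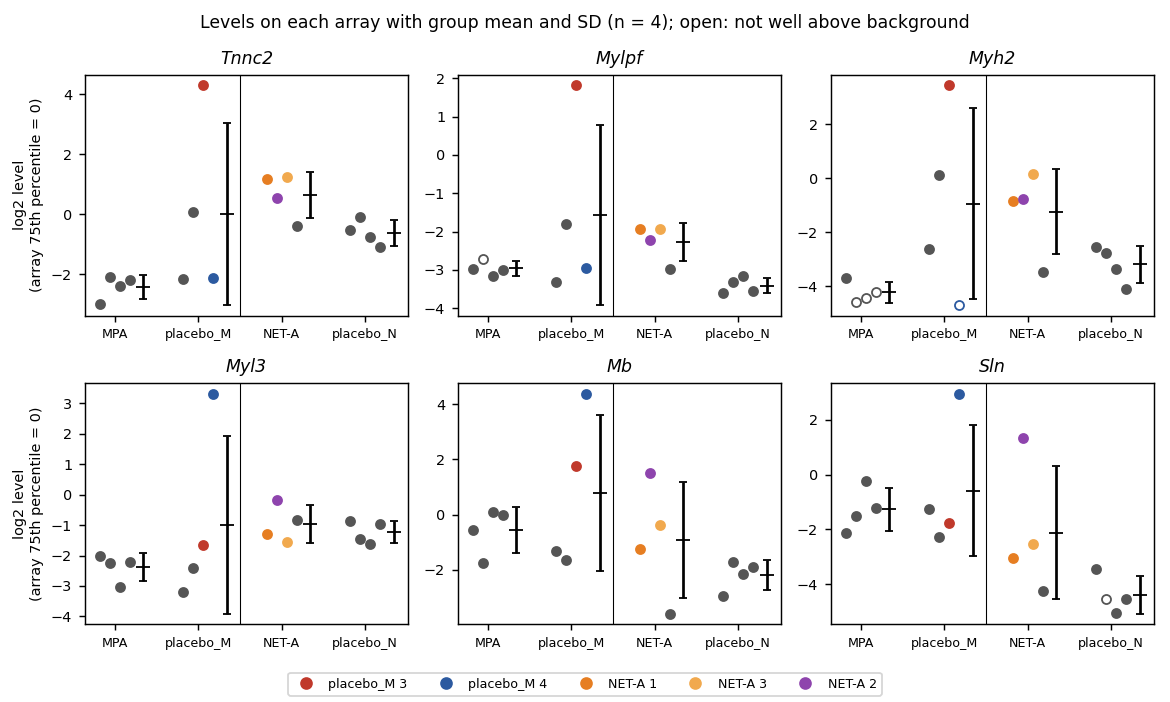
Points give the log2 level of 6 genes on each array (0 is the array's 75th percentile), open where the probe was not well above background, with bars for the group mean and SD of 4 arrays. The placebo_M spread of Tnnc2, Mylpf and Myh2 comes from placebo_M 3 and, less, from placebo_M 2, and that of Myl3 and Sln from placebo_M 4, while NET-A 4 lies inside the placebo_N range for Tnnc2 and Myh2.

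The second comparison asked the same of NET-A. None of the 13 fast, 6 slow and 13 shared members passed the adjusted threshold, and neither did any of the 20912 genes tested (0%). At an unadjusted p under 0.05 there were 7 members of 32, all higher in NET-A aortas, against 6.19% of all genes in either direction, 2.47% higher and 3.72% lower. They were the fast genes Mylpf, Tnnt3, Tnnc2, Myh4 and Myh2, the slow gene Myh7 and the shared gene Pgam2. Of these, Myh4 was well above background on 4 NET-A but only 2 placebo_N arrays, and its levels on placebo_N 1 and 2 are background. Some levels of other tested members given below are background too. Myl2 and Smpx were well above background on 3 NET-A and 2 placebo_N arrays, Myh1 and Tnnc1 on 3 and 3, and Sln on 4 and 3. Each of the 7 was higher on NET-A 1 and NET-A 2 than on any placebo_N array, and they were measured on the same arrays, so they are not independent of each other. The median log2 difference, NET-A minus placebo_N, was 0.88 over the fast, 0.22 over the slow and 0.40 over the shared genes, beside -0.0261 over all genes tested. All 13 fast, 5 of 6 slow and 11 of 13 shared members had a higher mean in NET-A aortas, beside 44.9% of all genes tested. These counts come from the same arrays, so their members are not independent of each other. The fast median was 0.67 without NET-A 1 or without NET-A 3, 1.25 without NET-A 4, and 0.38 without NET-A 1 and 3 together, a choice made after the data were seen. Within slides 3, 4 and 5 it was 1.51, 0.88 and 0.76, the first 2 from a single pair of arrays. NET-A 1 and 3 are the only treated arrays of slides 3 and 4, so without both the treated arrays are those of slide 5 alone. With normexp background correction the fast median was 0.17, against a median of -0.13 over all genes.

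The NET-A arrays differed in how many fast genes lay above the placebo arrays. Of the 13 tested fast genes, NET-A 1 exceeded the highest placebo_N array for 10, NET-A 2 for 8, NET-A 3 for 9 and NET-A 4 for 4. Tnnc2 had levels of 1.18, 0.55, 1.24 and -0.39 in NET-A aortas, against -0.53, -0.09, -0.77 and -1.10 in placebo_N aortas. NET-A 4 fell inside the placebo range and the other 3 lay above it, and the difference was 1.26 ± 0.38 (SE, limma, adjusted p = 0.625). Mylpf had levels of -1.94, -2.23, -1.92 and -2.98 in NET-A aortas, against -3.60, -3.32, -3.17 and -3.55 in placebo_N aortas. It was the 1 tested member whose groups did not overlap, while 1.54% of all genes were higher and 2.36% lower in NET-A without overlap. Its means were -2.27 ± 0.50 and -3.41 ± 0.20 (SD, n = 4 each), a ratio of 2.21, and the difference was 1.15 ± 0.25 (adjusted p = 0.597), or 0.81 without NET-A 1 and 3. Over all alternatives tried it ran from 0.17 to 1.38, with adjusted p from 0.341 to 1.

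Tnnt3 had levels of -1.34, -1.72, -0.71 and -3.06 in NET-A aortas, against -3.35, -2.83, -3.51 and -3.51 in placebo_N aortas. NET-A 4 again lay inside the placebo range, and the difference was 1.59 ± 0.46 (adjusted p = 0.625), or 0.91 without NET-A 1 and 3. Tnni2 had levels of 0.50, -0.26, 0.51 and -1.24 in NET-A aortas, against -1.02, -0.37, -1.42 and -1.20 in placebo_N aortas, with a difference of 0.88 ± 0.41 (adjusted p = 0.824) that became 0.26 without NET-A 1 and 3. Myh2 had levels of -0.85, -0.78, 0.17 and -3.49 in NET-A aortas, against -2.54, -2.79, -3.35 and -4.09 in placebo_N aortas. NET-A 1, 2 and 3 lay above all placebo arrays, and the difference was 1.96 ± 0.74 (adjusted p = 0.745). Myh4 had levels of -1.86, -2.08, -4.48 and -4.29 in NET-A aortas, against -4.97, -5.99, -4.79 and -4.45 in placebo_N aortas, and differed by 1.87 ± 0.67 (adjusted p = 0.716). Here NET-A 3 fell inside the placebo range, although it was the highest NET-A array for Myh2 and Tnnt3. Myh1 had levels of -1.63, -2.29, -1.36 and -6.48 in NET-A aortas, against -3.81, -3.45, -5.03 and -6.75 in placebo_N aortas, with a difference of 1.82 ± 1.21 (adjusted p = 0.906). It was 0.38 without NET-A 1 and 3, and the other Myh1 probes differed by 1.05 and -0.20.

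The other fast genes did not share this size of difference. Actn3, Casq1, Myl1, Atp2a1, Myoz1 and Mybpc2 differed by 0.13 to 0.36 (adjusted p = 0.931 to 0.997). Myoz1 had levels of -2.58, -2.78, -2.94 and -2.98 in NET-A aortas, against -3.35, -3.24, -2.99 and -2.44 in placebo_N aortas, and differed by 0.18 ± 0.21. Pvalb was well above background on NET-A 4 alone, with levels of -5.56, -8.52, -5.42 and -4.82 in NET-A aortas, against -6.83, -6.72, -8.15 and -7.99 in placebo_N aortas.

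Slow genes in the NET-A experiment rested in part on NET-A 2, on which the heart list had a median deviation of 1.94, against -0.22 to 0.19 on the other 7 arrays. Myh7 had levels of -1.19, -1.45, -2.32 and -3.46 in NET-A aortas, against -3.45, -3.34, -3.48 and -3.04 in placebo_N aortas. NET-A 1, 2 and 3 were high, and the difference was 1.22 ± 0.46 (adjusted p = 0.739), or 1.00 without NET-A 2. Myl2 had levels of -3.25, -3.09, -5.38 and -5.21 in NET-A aortas, against -6.11, -4.73, -5.64 and -5.30 in placebo_N aortas, and differed by 1.21 ± 0.59 (adjusted p = 0.832). Myl3 had levels of -1.30, -0.16, -1.56 and -0.84 in NET-A aortas, against -0.86, -1.45, -1.61 and -0.96 in placebo_N aortas, with a difference of 0.25 ± 0.32 (adjusted p = 0.983) that became -0.01 without NET-A 2. Tnnc1 had levels of -4.91, -3.16, -4.61 and -5.27 in NET-A aortas, against -4.15, -4.85, -5.16 and -4.54 in placebo_N aortas, and its difference of 0.18 ± 0.45 (adjusted p = 0.998) became -0.26 without NET-A 2. Mybpc1 was well above background on placebo_N 1 alone. Tnnt1 had levels of -1.59, -1.33, -1.55 and -1.10 in NET-A aortas, against -1.35, -1.49, -1.56 and -1.61 in placebo_N aortas. It differed by 0.11 ± 0.15 and Tnni1 by -0.19 ± 0.47 (adjusted p = 0.987 and 0.998).

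Of the shared genes, Sln had the largest difference. Sln levels were -3.05, 1.35, -2.52 and -4.25 in NET-A aortas, against -3.45, -4.53, -5.06 and -4.54 in placebo_N aortas. NET-A 2 lay 5.20 above the 8-array median, NET-A 1 and 3 lay above all placebo arrays by less, and NET-A 4 lay inside their range. The difference was 2.28 ± 1.08 (adjusted p = 0.824), and 1.12 without NET-A 2. Mb had levels of -1.24, 1.5, -0.36 and -3.58 in NET-A aortas, against -2.95, -1.71, -2.14 and -1.91 in placebo_N aortas. It was highest on NET-A 2 and lowest on NET-A 4, and its difference of 1.26 ± 0.94 (adjusted p = 0.921) became 0.45 without NET-A 2. Smpx had levels of -4.79, -2.13, -4.65 and -5.83 in NET-A aortas, against -5.33, -5.04, -5.05 and -5.48 in placebo_N aortas, and its difference of 0.87 ± 0.69 (adjusted p = 0.932) became 0.13 without NET-A 2. Brown adipocyte and general adipocyte genes had median deviations of 1.14 and 1.27 on NET-A 2. On NET-A 1 they stood at -1.13 and -0.77, and on NET-A 3 at -0.89 and 0.10. Their part in these values was not tested.

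Ckm had levels of -2.85, -2.63, -2.76 and -4.46 in NET-A aortas, against -4.41, -4.09, -4.73 and -2.17 in placebo_N aortas. The highest of the 8 was a placebo array, and the difference was 0.67 ± 0.62 (adjusted p = 0.952), or 1.23 without placebo_N 4. Neb had levels of -3.81, -4.82, -3.52 and -4.85 in NET-A aortas, against -4.44, -4.41, -4.95 and -5.81 in placebo_N aortas, and Cacna1s had levels of -1.68, -2.47, -1.65 and -1.92 in NET-A aortas, against -2.67, -2.24, -2.28 and -2.11 in placebo_N aortas. They differed by 0.65 ± 0.42 and 0.40 ± 0.22 (adjusted p = 0.897 and 0.860), with NET-A 1 and 3 highest in both. Acta1 had levels of 5.64, 5.31, 5.02 and 5.64 in NET-A aortas, against 5.44, 5.10, 5.68 and 5.27 in placebo_N aortas, a difference of 0.03 ± 0.19 (adjusted p = 0.998). Ryr1 had levels of -0.57, -0.95, -0.21 and -0.37 in NET-A aortas, against 0.06, 0.08, -0.83 and -0.45 in placebo_N aortas, a difference of -0.24 ± 0.25 (adjusted p = 0.965). Trdn probes other than the one used differed by 0.66, 2.04 and -0.19. The Trdn probe used was well above background on none of the 8 arrays, with levels of -5.97, -6.13, -7.47 and -6.06 in NET-A aortas, against -6.56, -6.70, -6.92 and -5.65 in placebo_N aortas. Ampd1 was so on NET-A 4 alone, Myot and Xirp2 were so on 2 NET-A arrays each and on no placebo_N array, and the other shared genes differed by -0.35 for Cacng1 to 0.80 for Pgam2.

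**Figure D5:**
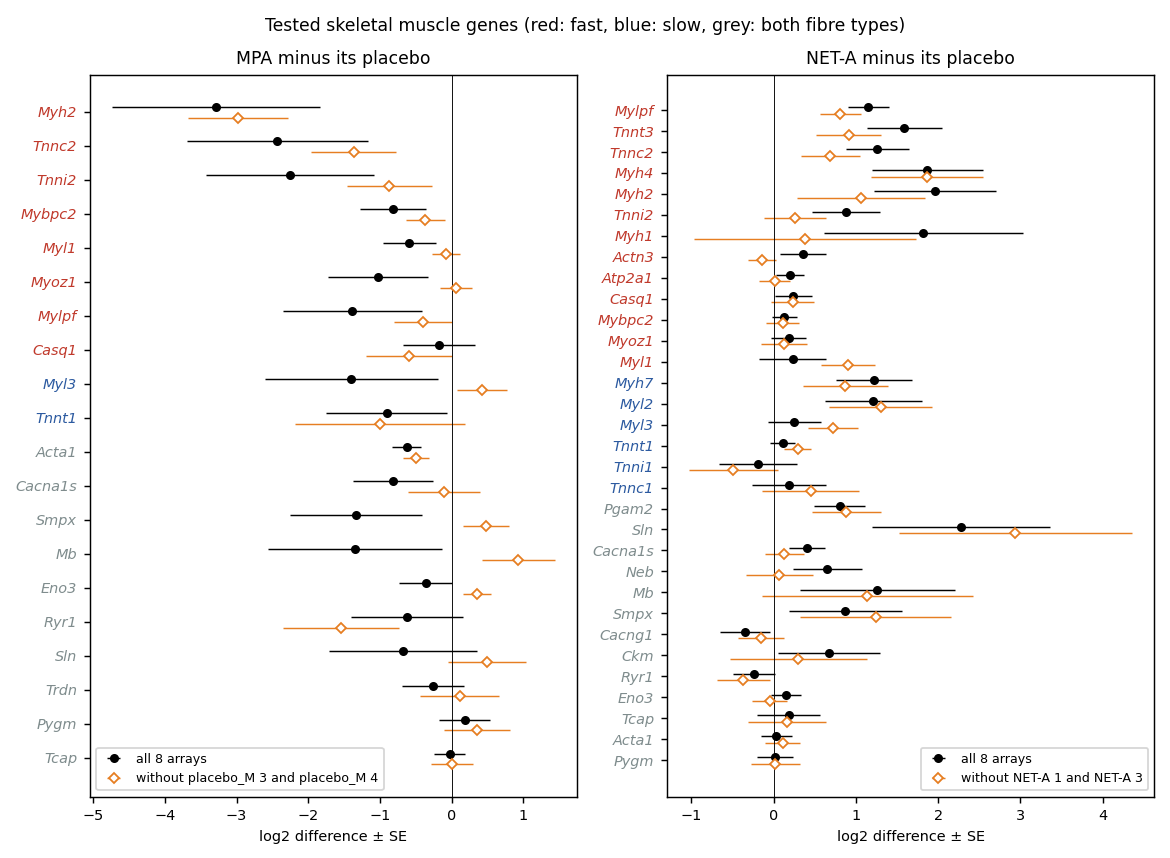
Points give the log2 difference, treated minus own placebo, with its SE for each tested gene, over all 8 arrays (filled) and without the 2 arrays that stand apart in that experiment (open). In the MPA panel Myl3, Mb, Smpx, Eno3, Sln, Trdn and Myoz1 cross 0 when placebo_M 3 and 4 are left out. In the NET-A panel Actn3 and Eno3 cross 0 when NET-A 1 and 3 are left out. Of the other fast genes there, Myl1 moves away from 0, Myh4, Casq1 and Mybpc2 hardly move, and the rest move toward 0.

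The third comparison set the MPA response against the NET-A response, each relative to its own placebo. Of 15089 genes tested, 0 (0%) passed the adjusted threshold, including 0 of the 19 members tested. For 18 of the 19 the MPA response was below the NET-A response, and 5 had an unadjusted p under 0.05, all lower, against 2.29% of all genes in that direction. The count of 18 has no share of all genes beside it here. The members were measured on the same arrays, so they are not independent of each other. Tnnc2, well above background on all 16 arrays, had a difference of -3.70 ± 1.42 (SE, limma, adjusted p = 0.643). The fitted difference of Myh2 was -5.25 ± 1.75 (adjusted p = 0.546), with 3 of its 4 MPA levels not well above background. The members' differences were not refitted without the arrays that stand apart.

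Other striated muscle genes outside the 38 differed less in the median. Of 52 further sarcomere, calcium-handling and muscle enzyme genes listed, 49 were on the array, 32 were tested in the MPA experiment and 44 in the NET-A experiment, 0 passed the adjusted threshold in either, and their median difference was -0.11 for MPA (10 higher, 22 lower) and 0.09 for NET-A (26 higher, 18 lower). The heart list had a median of -0.78 for MPA over 9 tested genes, which became -0.02 without placebo_M 4, and of 0.55 for NET-A over 11 genes, which became 0.07 without NET-A 2.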

How the data were processed

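Total RNA (100 ng per array) was labelled with Cy3 and hybridised to 1-colour arrays, per the labels' protocols. The deposited scanner files hold intensity values (processed, mean or median and background signal) from Agilent Feature Extraction 10.7.1.1 for the MPA and 11.0.1.1 for the NET-A experiment, per the file headers. The authors' series table holds values on a log2 scale, and no source used here states how it was made. Against quantile-normalized probe-centred values it had correlations of 0.987 to 1.00 and slopes of 0.979 to 1.01, with column medians from -0.027 to 0.015, so its scale and centring are inferred from the values. It served as an alternative.

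Here log2 of the processed signal minus the 75th percentile of each array was taken. Outlier spots (0.515% of values) were masked, no spot was saturated, spots of a probe were averaged, and the brightest of a gene's probes over 16 arrays was used. The NET-A files carry no gene names, and these came from the MPA files through the shared probe names. The 38 members have 65 probes, and 36 of 38 accessions matched a RefSeq transcript of the same symbol. Genes well above background on at least 4 of 8 arrays of an experiment were tested with limma 3.58.1 in R 4.3.3, with Benjamini-Hochberg adjustment over all of them. The test was checked on simulated data. It recovered 41% of log2 changes of 1 and 89% of changes of 2 for the MPA comparison. For the NET-A comparison it recovered 37% and 73%, so changes of this size can be missed. No such share is given for the members alone. In the MPA comparison Myh2, Tnnc2 and Tnni2 had SEs of 1.45, 1.26 and 1.17, so the shares cannot be carried over to them. The number of arrays limits the precision.

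Values on every array are given for the members with the widest range over the arrays of an experiment among those well above background on at least 4 of its 8 arrays (up to 8 fast, 5 slow and 8 shared) and for Acta1, Ckm, Myh7, Tnnc1, Sln and Pvalb; values of other genes singled out were chosen after they were seen. The members and lists were chosen with earlier results of these data known. Alternatives covered background correction, scaling, the authors' table, the filter, probes, slide, replicate number, array weights and left-out arrays. Promoter sequences are RefSeq's for GRCm38.p6.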

Additional observations from a re-analysis of the deposited data

Results flagged for a closer look

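In groups of 4 arrays, 82 values were compared for an array far from the other 3 (gap to the nearest over the whole range, against the Dixon critical value), and 5, or 6.1%, were so; chance gives about 1 in 20. The fast median of 4.72 on placebo_M 3 and the slow median of 3.32 on placebo_M 4 are the values described above. The slow median of 0.60 on MPA 2 lay far from the other MPA arrays, and MPA 2 was the dimmest array, with 2 of 7 slow genes well above background. Tnnt1 at -6.12 on MPA 1 was a value not well above background, and Ckm at -4.46 on NET-A 4 was the low array of its group.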

How the results depend on the processing

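No tested member passed the adjusted threshold under any alternative. The number of genes called was 0 for MPA under every alternative except 1 with slide as a block and 1 with all 16 arrays in one fit, 0 for NET-A under all, and 0 to 1 for the difference of responses when single arrays were left out, with the 1 appearing without NET-A 1. Leaving out single arrays moved the MPA medians between -1.66 and -0.29 (fast), -1.50 and -0.45 (slow) and -0.66 and -0.16 (shared), and the NET-A medians between 0.67 and 1.25, 0.05 and 0.37, and 0.28 and 0.43. Replicate numbers did not pair the arrays (same-numbered correlations of deviations from -0.246 to 0.241 for MPA and -0.332 to 0.327 for NET-A), and with replicate number as a block 0 genes were called in either comparison and the fast medians stayed at -1.21 and 0.88. Treated and placebo arrays of the same slide had correlations of 0.142 to 0.466 for NET-A and -0.246 to 0.267 for MPA. With slide as a block the fast medians also stayed at -1.21 and 0.88.

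The shared median for MPA moved to 0.27 within slide 1, 0.23 without placebo_M 3 and 4 and -0.24 with normexp, and the slow median to 0 with normexp. For NET-A the fast median moved to 0.17 with normexp, 0.36 with genes well above background on all 8 arrays, 1.51 within slide 3 and 0.38 without NET-A 1 and 3; the slow median moved to 0.71 within slide 5, -0.16 and -0.09 within slides 3 and 4, and -0.09 with normexp; and the shared median moved to 0.05 with normexp, 0.65 with no filter, 0.16 with all 8 arrays or with the mean of all probes, and 0.13 without NET-A 1 and 3. The filters change which genes are counted; for the others the cause was not tested.

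Uncalled differences that changed sign are listed only for members given with values on every array. Other members are left out, such as Eno3, which went from -0.36 to 0.35 for MPA without placebo_M 3 and 4. For MPA with normexp the listed ones were Cacna1s 0.46, Myoz1 0.40, Tnnt1 0.60 and Trdn 0.85. Within slide 1 they were Cacna1s 0.42, Mb 0.34, Myl3 0.66, Myoz1 0.11, Smpx 0.67 and Trdn 0.23, and within slide 2 Ryr1 0.19. Without placebo_M 3 and 4 they were Mb 0.93, Myl3 0.42, Myoz1 0.06, Sln 0.49, Smpx 0.48 and Trdn 0.11. For NET-A with normexp they were Cacna1s -0.03, Ckm -0.24, Myl2 -0.16, Myoz1 -0.28, Neb -0.26, Smpx -0.17, Tnnc1 -0.41 and Tnnt1 -0.03; within slide 5, Ckm -0.10 and Myoz1 -0.16; with array weights, Tnnc1 -0.28; and with the mean of all probes, Cacna1s -0.45. Among these same members, single arrays left out gave ranges that crossed 0 for MPA in Myl3 (-2.13 to 0.03), Ryr1 (-1.40 to 0.09), Sln (-1.25 to 0.49), Tnnt1 (-1.38 to 0.10) and Trdn (-0.67 to 0.07). For NET-A they did so in Acta1 (-0.06 to 0.16), Myl3 (-0.01 to 0.45) and Tnnc1 (-0.26 to 0.44).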

Other observations

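Myh8, the perinatal skeletal myosin heavy chain, which is no member, had levels of -4.67, -3.39, -3.89 and -3.78 in MPA aortas, against -4.20, -0.51, 4.22 and 0.24 in placebo_M aortas. In the other experiment it had levels of 0.39, 0.20, 0.25 and -3.23 in NET-A aortas, against -2.88, -2.89, -3.10 and -4.41 in placebo_N aortas. NET-A 1, 2 and 3 again lay above all placebo arrays and NET-A 4 inside their range. Unlike Tnnc2 or Tnnt3, it was raised on placebo_M 4 as well.

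Ucp1, the heat-producing uncoupler of brown fat, was singled out after its values were seen and had levels of 5.38, 8.2, 5.51 and 6.17 in NET-A aortas, against 7.07, 6.65, 6.83 and 7.05 in placebo_N aortas. The arrays NET-A 1 and 3, on which the fast genes were highest, had the lowest Ucp1. On placebo_M 3 Ucp1 stood at 8.93, with a range of 8.19 to 8.97 in MPA aortas. Members held 0 of the first 100 places by gap to the next array on NET-A 1 and on NET-A 3, against 14 on placebo_M 3 and 6 on placebo_M 4.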
